A study of Homo sapiens with 8 samples.

Results

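The genes described here are 9 subunits of the transcriptional cyclin-dependent kinase (CDK) complexes other than CDK9: CDK7 with its cyclin CCNH and the assembly factor MNAT1, the Mediator kinases CDK8 and CDK19 with their cyclin CCNC, and CDK12 and CDK13 with their cyclin CCNK. They were picked by symbol, and all 9 were found among the 55737 genes of the deposited table. The RNA came from LNCaP, an established androgen-responsive human prostate cancer cell line. Cells were harvested after 4 hours under 4 conditions: control, 40 µM OSMI-2, which inhibits O-GlcNAc transferase (OGT), 0.5 µM AT7519, an inhibitor of several CDKs with CDK9 among them, and both agents together at those doses. The labels of the samples give these doses in mM and the design of the series gives them in µM. Each condition had 2 libraries, 8 in all, from a single cell line, and no source used here says whether the 2 came from separate cultures, so the p-values measure only the spread between these libraries. The title of the series asks whether cells with OGT inhibited depend on CDK9, which places the other transcriptional CDKs as the comparison set.

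CDK7, cyclin H and MAT1 (the product of MNAT1) form the CDK-activating kinase, which phosphorylates the activation loop of other CDKs and, as part of the general transcription factor TFIIH, phosphorylates the C-terminal domain of RNA polymerase II when transcription starts. CDK8 and its close relative CDK19 pair with cyclin C in a detachable module of Mediator, the complex that links transcription factors to the polymerase. CDK12 and CDK13 pair with cyclin K and phosphorylate the same domain during elongation, and CDK12 is known for keeping long DNA repair genes expressed to their full length. CDK12 is also recurrently inactivated in advanced prostate cancer.

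The 8 libraries held 60152710 to 154367238 reads on genes. The fewest reads behind any of the 9 genes in a library were 700 (CDK7) and the most were 34087 (CDK19). The 2 libraries of a condition correlated at 0.988 to 0.994 over genes. Mitochondrial mRNAs took 4.45% to 5.53% of the counts without AT7519 and 6.57% to 7.73% with it. All 10 luminal prostate markers were present, with summed levels of 425714 to 530078 normalised counts. Of 7 markers of other cell types, PECAM1 was not found by that name, and the other 6 summed to 3213 to 3797 normalised counts without AT7519 and 3921 to 5243 with it, nearly all from COL1A1 and VWF, with PTPRC, DCN, KRT5 and TP63 near 0. Their part in the results was not tested.

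For 3 of these genes, CDK7, CDK12 and CDK19, a stretch of sequence just before a listed start is shown. The response to AT7519 played no part in the choice of these stretches. They come from RefSeq promoters on build GRCh38.p14, which lists 14 starts for the 9 genes, and they are those of the 14 whose last 120 bases before the start hold no annotated exon (GENCODE release 29). They lie at chr5:69234675-69234794 on the plus strand for CDK7, chr17:39461366-39461485 on the plus strand for CDK12 and chr6:110815638-110815757 on the minus strand for CDK19. Each is printed 5′ to 3′, and capitals mark CpG dinucleotides.
CDK7: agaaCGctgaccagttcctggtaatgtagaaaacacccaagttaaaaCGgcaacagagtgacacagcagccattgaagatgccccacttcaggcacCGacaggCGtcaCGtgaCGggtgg
CDK12: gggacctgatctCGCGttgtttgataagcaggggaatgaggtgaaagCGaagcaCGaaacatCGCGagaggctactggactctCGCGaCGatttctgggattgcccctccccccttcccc
CDK19: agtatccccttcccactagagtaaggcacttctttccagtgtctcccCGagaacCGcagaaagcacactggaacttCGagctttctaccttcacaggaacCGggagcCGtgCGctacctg
The CDK7 and CDK19 stretches hold 6 CpG each and the CDK12 stretch holds 9. Over the 250 bases before each of the 14 starts there were 10 to 30 CpG, beside a median of 11 over all 35116 listed promoters, and the highest count of 30 was that of both CDK13 starts. On either strand, the GC box GGGCGG was found before at least 1 start of CDK7, CCNH, CDK8, CDK19, CDK13 and CCNK. It was found in 42.6% of all promoters. The letters CCAAT of the NF-Y box were found before at least 1 start of CDK19, CCNC and CCNK, and in 32.0% of all promoters. Some genes had more than 1 listed start, so these matches by gene are not on the scale of the shares of single promoters. No match to TATAAA (10.7% of all promoters) to the ETS letters CCGGAAG (8.52%), to the NRF1 motif (5.07%) or to the YY1 motif (0.248%) was found before any of the 14. CDK12 and MNAT1 had none of the motifs searched in these windows.

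The level of each gene was given in normalised counts, that is, reads per gene divided by a size factor for each library. Per kilobase of exon, the scale on which genes can be set beside each other, the control level was highest for CCNH at 4333 ± 346 normalised counts (SD, n = 2), followed by CDK19 at 3440 ± 418, CCNC at 2603 ± 101 and CDK7 at 1998 ± 39.6. CDK12 at 1475 ± 68.2 and CDK8 at 1372 ± 77.3 came next and differed by about their spread. CCNK stood at 1146 ± 68.2, MNAT1 at 963 ± 24.1 and CDK13 at 461 ± 6.43. The kinases of the same module were therefore unequal, with CDK19 above CDK8 and CDK12 above CDK13 in both control libraries. Exon lengths were those of GENCODE, and if the longest coding transcript is used instead, CCNC stands at 4457 and CDK19 at 3511, so the order of these 2 depends on the gene model.

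Under AT7519 alone at least 1 kinase of each module fell while 2 of the 3 cyclins rose as the libraries were deposited, and with equal mitochondrial sums, a scaling described further on, these cyclins fell too. CDK13, CDK7, CDK8 and CDK12 fell, the cyclins CCNH and CCNC rose, and MNAT1, CDK19 and CCNK did not pass the test (limma, adjusted p below 0.05 over the 19393 genes tested). These 6 of 9 stand beside 53.2% of all tested genes that were called, 26.0% higher and 27.2% lower, so the share of members that moved is near that of any gene at this dose and time. In 7 of the 9 genes both treated libraries lay on the same side of both controls, as in 76.0% of all tested genes. The median log2 change of the 9 genes was -0.19, and that of all tested genes was -0.0042. The plot of levels by library shows the 9 genes side by side.

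**Figure D1:**
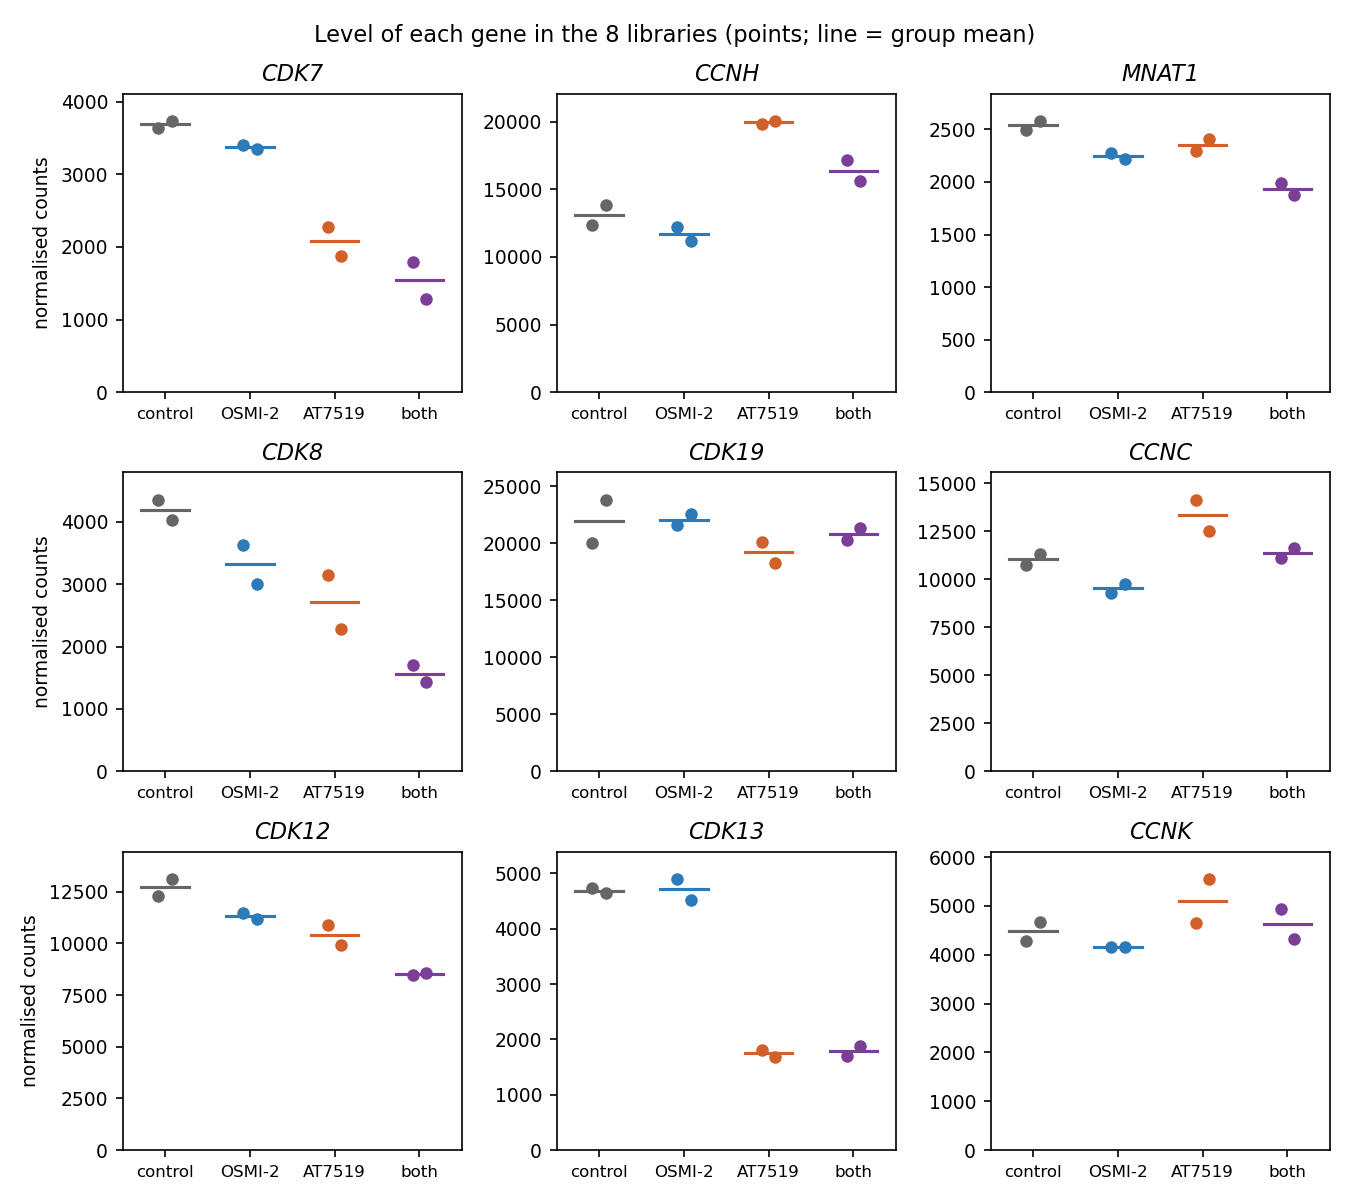
Normalised counts (vertical axis, from 0) of the 9 genes in the 4 conditions; each point is a library and each line the mean of the 2 libraries. CDK13 lies between 1691 and 1880 in all 4 libraries with AT7519 and between 4520 and 4903 in the 4 without it, whereas CCNH is highest with AT7519 alone.

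In the CDK7 module the kinase and the cyclin moved in opposite directions as the libraries were deposited. With equal mitochondrial sums the cyclin fell too (log2 change -0.31). CDK7 stood at 3634 and 3737 normalised counts in the control libraries and at 2277 and 1872 with AT7519, so that both treated libraries lay below both controls. Its log2 change was -0.84 ± 0.14 (SE), 1.78-fold lower, with an adjusted p of 0.00018 by limma. CCNH, the cyclin that activates CDK7, stood at 12379 and 13862 in control and at 19864 and 20080 with AT7519. It rose 1.52-fold, with a log2 change of 0.61 ± 0.084 (SE) and an adjusted p of 3.18e-05 by limma. MNAT1, whose product holds the kinase and the cyclin together, stood at 2493 and 2583 in control and at 2291 and 2405 with AT7519. Its log2 change of -0.11 had an adjusted p of 0.344, with a 95% interval of -0.32 to 0.093.

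In the Mediator kinase module, CDK8 was lower and its cyclin higher as the libraries were deposited. With equal mitochondrial sums this cyclin fell too (log2 change -0.64). CDK8 stood at 4358 and 4024 normalised counts in control and at 3156 and 2287 with AT7519, 1.56-fold lower, with a log2 change of -0.64 ± 0.14 (SE) and an adjusted p of 0.00181 by limma. The 2 treated libraries differed from each other by more than the controls did, and without AT7519 replicate 2 the log2 change was -0.41. CDK19, the more abundant relative of CDK8, stood at 20046 and 23815 in control and at 20103 and 18270 with AT7519, and these ranges overlapped. Its log2 change was -0.19 with an adjusted p of 0.0848. It passed as lower without control replicate 1 (-0.31, adjusted p 0.0175), with edgeR on read counts (adjusted p 0.0393), with equal totals (-0.53, adjusted p 8.93e-05) and with quantile normalisation (-0.52, adjusted p 0.000152), so this gene's call depended on the processing. CCNC, the cyclin both kinases share, stood at 10721 and 11326 in control and at 14137 and 12517 with AT7519. It rose 1.21-fold (log2 change 0.27, adjusted p 0.0121), and the call was lost when control replicate 1 or AT7519 replicate 1 was left out (adjusted p 0.0889 and 0.112), with quantile normalisation (0.058, adjusted p 0.539) and without the variance trend (adjusted p 0.0636).

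In the cyclin K module, CDK13 had the largest change of the 9 genes. It stood at 4735 and 4643 normalised counts in control and at 1806 and 1691 with AT7519. This was 2.68-fold lower, with a log2 change of -1.42 ± 0.097 (SE) and an adjusted p of 8.84e-08 by limma, and 7.52% of all tested genes had a change at least as low. CDK12, its closest relative, stood at 12293 and 13124 in control and at 10863 and 9922 with AT7519, 1.22-fold lower (log2 change -0.29, adjusted p 0.00605). That smaller fall missed the threshold when control replicate 2 or AT7519 replicate 2 was left out (adjusted p 0.0620 and 0.0529). CCNK, the cyclin of both, stood at 4288 and 4665 in control and at 4644 and 5557 with AT7519, ranges that overlapped. Its log2 change of 0.18 had an adjusted p of 0.153, and 0.0303 without AT7519 replicate 1.

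**Figure D2:**
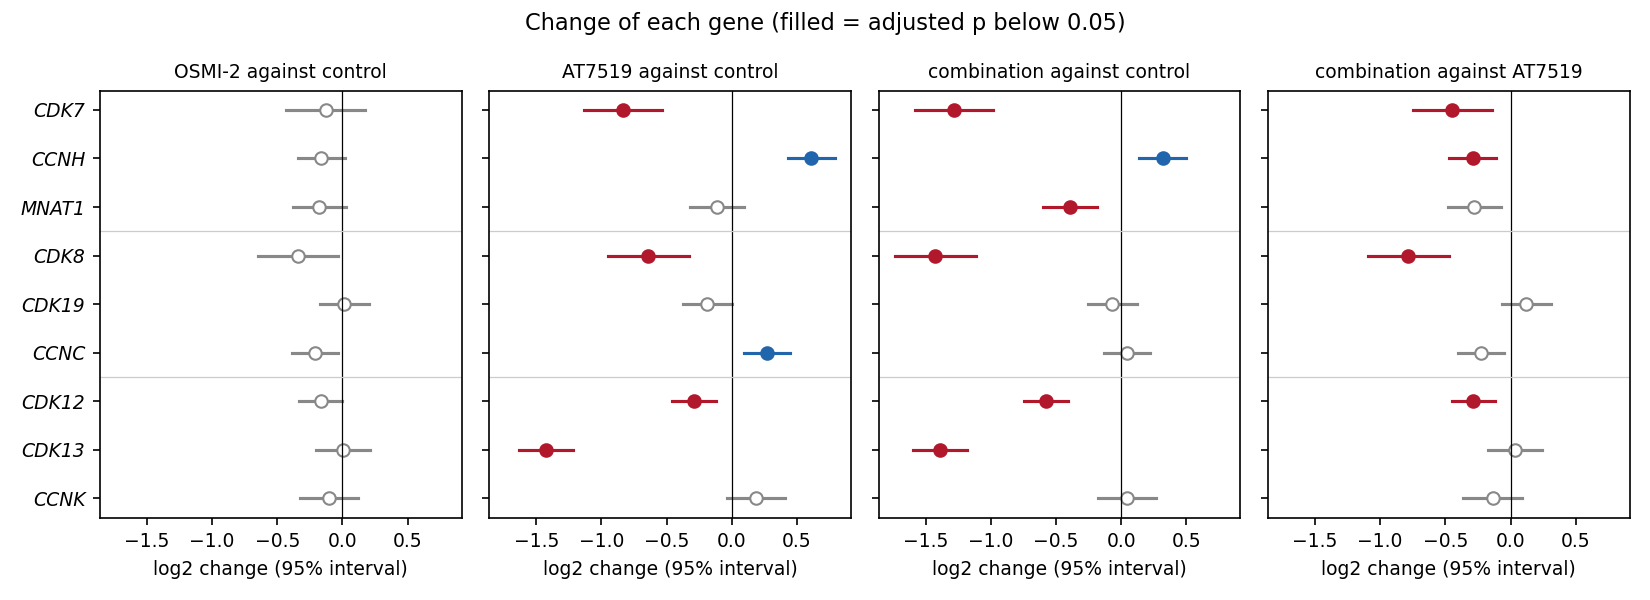
Log2 change (horizontal axis) of each gene with its 95% interval in 4 comparisons, by limma; filled points passed at an adjusted p below 0.05, red lower and blue higher, and open points did not pass. With AT7519 alone CDK13 lies at -1.42 and CCNH at 0.61 (-0.31 with equal mitochondrial sums), and with OSMI-2 alone all 9 points are open.

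The balance between a kinase and its own cyclin or relative can be read within each library as the ratio of 2 genes, which a constant factor per library leaves unchanged. The 4 libraries with AT7519 were set against the 4 without it for 9 such pairs, 3 in each module, by an exact two-sided permutation test whose smallest possible p is 0.0286. That smallest p was reached by 8 of the 9 pairs, with an adjusted p of 0.0321 over the 9. Whether a pair passes after adjustment depends on how many of the other pairs reach this smallest p too. A pass is therefore no measure of that pair alone. Over all pairs of the 9344 genes that averaged 1000 normalised counts or more, 59.4% likewise had no overlap between libraries with and without AT7519.

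CDK7 per CCNH ranged from 0.270 to 0.300 without AT7519 and from 0.0819 to 0.115 with it, 2.91-fold lower. CDK13 per CCNK ranged from 0.995 to 1.18 without AT7519 and from 0.304 to 0.436 with it, 2.98-fold lower. CDK8 per CCNC ranged from 0.309 to 0.406 without AT7519 and from 0.123 to 0.223 with it, 2.18-fold lower. All 3 kinase-to-cyclin ratios were separated with no overlap. CDK19 per CCNC ranged from 1.87 to 2.32 without AT7519 and from 1.42 to 1.84 with it, a narrow gap and a 1.32-fold lower ratio. This pair passed in only 1 of the 8 runs that left out a library (without control replicate 1), with adjusted exact permutation p of 0.0571 to 0.0964 in the other 7. CDK12 per CCNK ranged from 2.69 to 2.87 without AT7519 and from 1.71 to 2.34 with it, 1.43-fold lower, and failed in 4 of the 8 such runs (adjusted exact permutation p up to 0.0735).

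Of the 2 pairs of related kinases, 1 passed. CDK12 per CDK13 ranged from 2.34 to 2.83 without AT7519 and from 4.57 to 6.02 with it, 2.09-fold higher. CDK13 was thus lower relative to CDK12 in every library with AT7519 than in any without it. CDK8 per CDK19 was 0.217 and 0.169 in control, 0.168 and 0.134 with OSMI-2, 0.157 and 0.125 with AT7519 and 0.0838 and 0.0668 with both agents. The libraries with and without AT7519 overlapped for this pair (1.65-fold lower with AT7519, exact permutation p 0.0571, the same after adjustment), and it passed without AT7519 replicate 1 (adjusted exact permutation p 0.0321). The remaining ratios lay within the CDK7 module, where CDK7 per MNAT1 was 1.78-fold lower and CCNH per MNAT1 1.63-fold higher with AT7519.

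**Figure D3:**
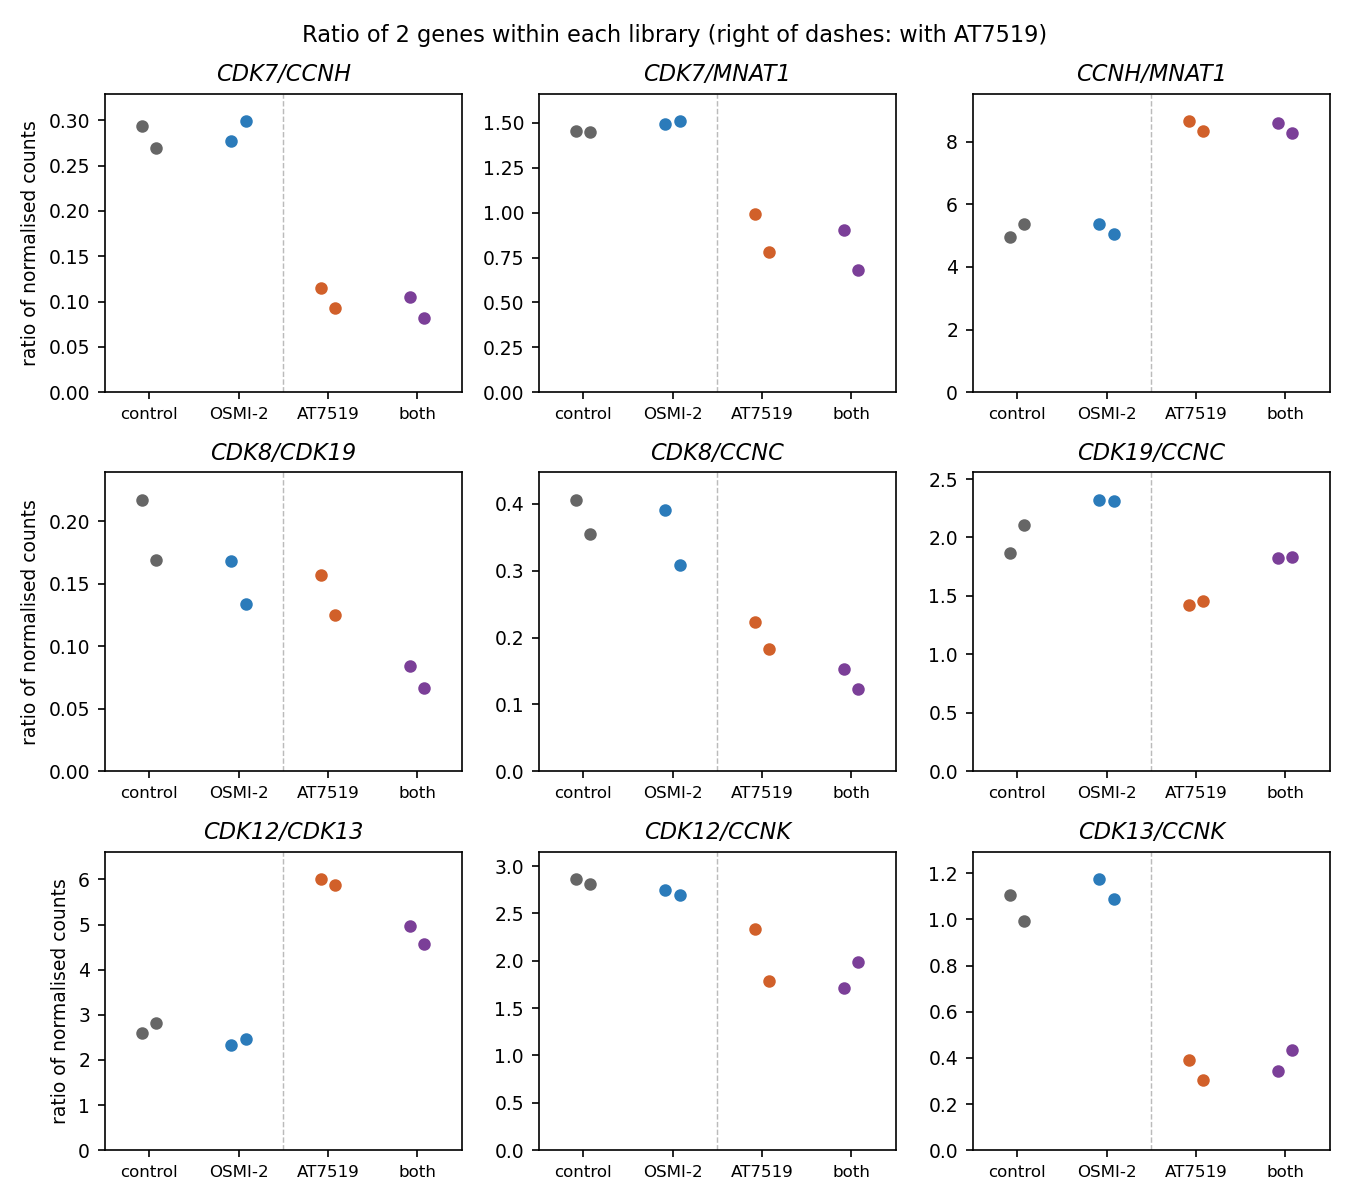
Ratio of the normalised counts of 2 genes within each library (vertical axis, from 0) for 9 pairs, 3 in each module; each point is a library, and the 4 libraries with AT7519 stand right of the dashed line. CDK8 per CDK19 is the only pair of the 9 in which points left and right of the line overlap.

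OSMI-2 alone moved none of the 9 genes past the threshold. By limma 0 of 9 were called, beside 3.02% of all tested genes (0.645% higher and 2.38% lower). An unadjusted p below 0.05 was reached by 3 (CCNC, CDK8 and CDK12), and by 3450 of all 19393 tested genes. Tests on read counts with edgeR and DESeq2 also called 0. The largest difference was that of CDK8, which stood at 3627 and 3012 normalised counts with OSMI-2 against 4358 and 4024 in control. Both treated libraries were lower, with a log2 change of -0.34, an adjusted p of 0.230 and a 95% interval of -0.65 to -0.032. This gene passed in a fit to the control and OSMI-2 libraries alone (adjusted p 0.0481) and with equal mitochondrial sums (adjusted p 0.0307). CCNC stood at 9293 and 9748, with a log2 change of -0.21 and an adjusted p of 0.186, and CDK12 at 11449 and 11163, with a log2 change of -0.17 and an adjusted p of 0.281. CDK7 stood at 3396 and 3350, CCNH at 12242 and 11185, MNAT1 at 2277 and 2215 and CCNK at 4166 and 4150, with log2 changes from -0.18 (MNAT1) to -0.11 (CCNK). CDK19 at 21593 and 22537 and CDK13 at 4903 and 4520 were closest to control, with log2 changes of 0.014 and 0.0058. In 7 of the 9 genes the OSMI-2 libraries did not overlap the controls, beside 53.6% of all tested genes. None of the 9 pair ratios passed between the libraries with and without OSMI-2 (smallest adjusted exact permutation p 0.771), and 9.71% of all gene pairs had no overlap there. With arrangements kept within libraries of the same AT7519 state, the smallest adjusted p was 0.167, where an unadjusted exact permutation p cannot be below 0.0556. Within each AT7519 state the libraries with and without OSMI-2 did not overlap in CDK8 per CDK19, CDK19 per CCNC or CDK12 per CDK13. The share of all gene pairs that part in both states was not counted. With 2 libraries against 2, 53.6% of single genes did not overlap without AT7519 and 55.6% with it. For CDK8 per CDK19 the gap without AT7519 was narrow, from 0.169 in control to 0.168 with OSMI-2. CDK19 per CCNC was 1.87 and 2.10 in control against 2.32 and 2.31 with OSMI-2, and 1.42 and 1.46 with AT7519 against 1.83 and 1.84 under both agents.

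With both agents 5 of the 9 genes were below control and 1 above it. CDK8 stood at 1703 and 1428 normalised counts, the lowest 2 of its 8 values, and was 2.68-fold below control (log2 change -1.42, adjusted p 1.61e-06 by limma). CDK13 stood at 1702 and 1880, 2.62-fold below control, and CDK7 at 1798 and 1277, 2.43-fold below control. CDK12 stood at 8463 and 8584, 1.49-fold below control. MNAT1, which had not passed with either agent alone, stood at 1993 and 1880 and was 1.31-fold below control (log2 change -0.39, adjusted p 0.00316), a call lost with quantile normalisation (-0.15, adjusted p 0.198). The gene above control was CCNH, at 17152 and 15583, with a log2 change of 0.32 and an adjusted p of 0.00499. Its call was lost without control replicate 1 (adjusted p 0.0696) or combination replicate 1 (adjusted p 0.0585), with equal totals (0.061, adjusted p 0.573) and with quantile normalisation (0.16, adjusted p 0.132), and with equal mitochondrial sums CCNH fell to -0.66. The 3 genes that did not pass were CDK19 at 20317 and 21370, CCNC at 11112 and 11644 and CCNK at 4940 and 4313. CDK19 was called lower with equal totals and with quantile normalisation (-0.33 under both, adjusted p 0.00406 and 0.00342), and CCNC with equal totals (-0.21, adjusted p 0.0304). Of all tested genes, 53.9% were called (26.3% higher and 27.6% lower) and 77.1% had groups that did not overlap, as did 6 of the 9, in this comparison, which has its controls in common with the 2 above.

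Set against AT7519 alone, the combination lowered CDK8, CDK7, CCNH and CDK12 and raised none of the 9, beside 19.7% of all tested genes called, 12.5% lower and 7.21% higher. The libraries of the 2 groups did not overlap in 7 of the 9, as in 55.6% of all tested genes. CDK8 was 1.72-fold lower than with AT7519 alone (log2 change -0.78 ± 0.14 (SE), adjusted p 0.0022 by limma), and when each library was left out in turn its log2 change stayed between -1.02 and -0.55. CCNH was 1.22-fold lower (adjusted p 0.0268) and CDK12 1.22-fold lower (adjusted p 0.021). CDK7 was 1.36-fold lower (adjusted p 0.0389), with a log2 change of -0.45 that became -0.20 without combination replicate 2 and -0.69 without combination replicate 1. Its call was lost with edgeR (adjusted p 0.0699), and in limma with no filter on low values (0.0832) or only the groups compared (0.0943). In limma CCNH lost its call with no filter (0.0602) and CDK12 with only the groups compared (0.0587). CDK7, CCNH and CDK12 each lost the call in some runs that left out a library, whereas CDK8 did not. MNAT1 (log2 change -0.28, adjusted p 0.0558) and CCNC (-0.23, 0.0685) lay just outside the threshold. CDK13 differed by 0.034 on the log2 scale, with a 95% interval of -0.17 to 0.24. The count of 4 was 1 without AT7519 replicate 1 and 1 without combination replicate 2, 1 (CDK8) under each of equal totals, equal upper quartiles and quantile normalisation, and edgeR called 3 and DESeq2 called 6.

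Against OSMI-2 alone the combination gave the directions seen with AT7519 against control: CCNH (log2 change 0.48) and CCNC (0.26, adjusted p 0.0159 by limma) rose, though with equal mitochondrial sums they were at -0.37 and -0.60, and CDK13 (-1.40), CDK7 (-1.15), CDK8 (-1.08) and CDK12 (-0.41) fell. With equal totals CCNH (0.15, adjusted p 0.156) and CCNC (-0.077) were no longer called as higher. The call of CCNC was also lost with quantile normalisation (0.087, adjusted p 0.340), without the variance trend (adjusted p 0.0724), and when OSMI-2 replicate 1 (adjusted p 0.108) or combination replicate 2 (adjusted p 0.0929) was left out. Of all tested genes 54.8% were called in this comparison, 27.5% higher and 27.3% lower, and 77.4% had groups that did not overlap, as did all 9 members. Whether the effect of AT7519 differed in the presence of OSMI-2 was tested as the interaction of the agents, and 0 of the 9 genes passed by limma, edgeR or DESeq2, beside 1.04% of all tested genes by limma (0.0619% higher and 0.975% lower). CDK8 was the only member with an unadjusted p below 0.05 (0.0477 by limma), a threshold that 1962 of all 19393 tested genes passed. Its interaction was -0.44 on the log2 scale, with an adjusted p of 0.484 and a 95% interval of -0.88 to -0.0050. For CDK13 the interaction was 0.028 with an interval of -0.27 to 0.32.

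The direction of the cyclins under AT7519 depended on how the libraries were scaled. Libraries with AT7519 have larger deposited totals, and setting all totals equal shifted the median of all tested genes to -0.34, whereas setting the sums over the 13 mitochondrial mRNAs equal shifted it to -0.91. With equal totals 10.5% of tested genes were called higher and 43.1% lower, and with equal mitochondrial sums 1.97% and 75.6%. With equal totals CCNH rose, 6 of the 9 genes fell and CCNC was at -0.071, and with equal mitochondrial sums all 9 fell, CCNH by the least at -0.31 on the log2 scale. CDK13, CDK7, CDK8 and CDK12 were called lower under each of the 5 scalings. A constant shift of all genes in a library leaves the pair ratios as they were. In bulk RNA, fewer cells and less RNA per cell cannot be told apart from these values.

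**Figure D4:**
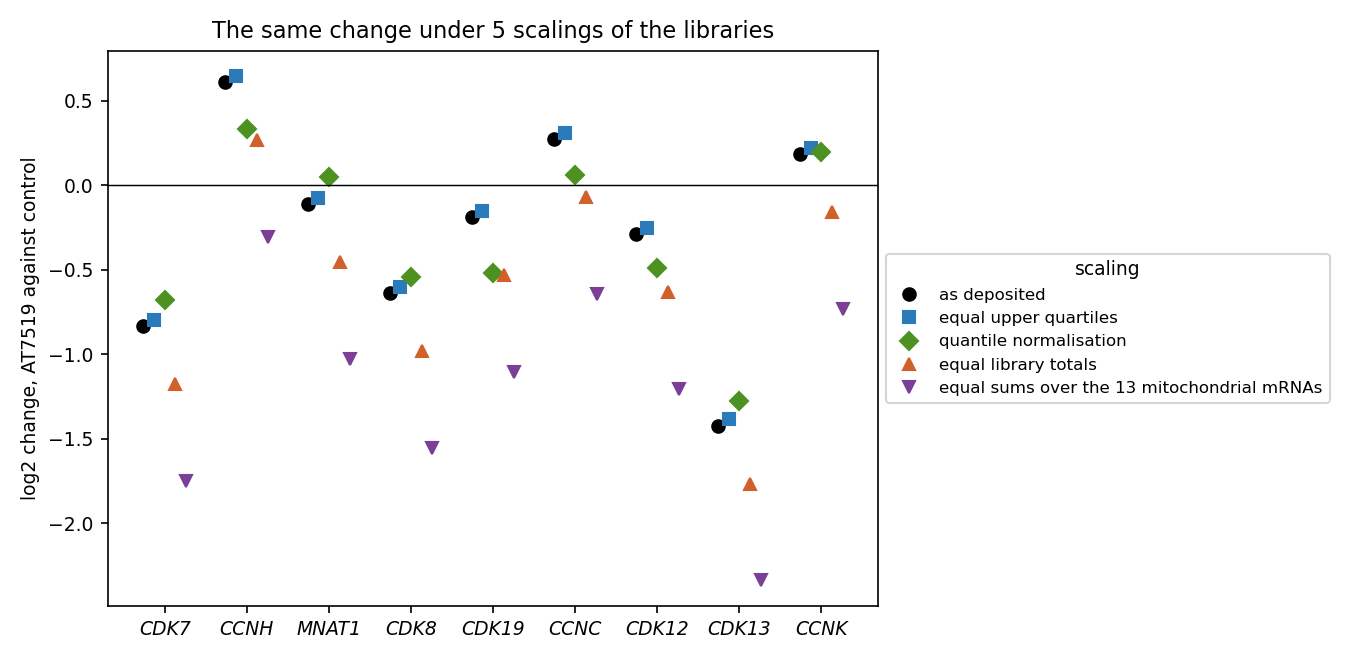
Log2 change with AT7519 against control (vertical axis) of the 9 genes under 5 scalings of the libraries, from the deposited values to equal sums over mitochondrial mRNAs; each symbol is a scaling. CDK7, CDK8, CDK12 and CDK13 lie below 0 under all 5, and CCNH lies between -0.31 with equal mitochondrial sums and 0.65 with equal upper quartiles.

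The partners of the 3 modules were read from the same fit, with lists written from general knowledge. For AT7519 against control, the counts of these lists stand beside 26.0% of all tested genes called higher and 27.2% lower, and with equal mitochondrial sums beside 1.97% and 75.6%. Leaving out each library in turn was added for these genes after their values had been seen. Of 7 core subunits of TFIIH, the factor that carries CDK7, GTF2H5 rose with AT7519 (log2 change 0.48) and GTF2H1 (-0.69) and GTF2H2 (-0.23) fell. The call of GTF2H2 was lost with equal upper quartiles (-0.19, adjusted p 0.0697) and in 5 of 8 runs that left out a library (log2 change -0.13 without control replicate 2). With equal mitochondrial sums 0 rose and 6 fell. Of the 4 partners of CDK8 and CDK19 in the Mediator kinase module, MED13, which tethers the module to Mediator, went from 10814 ± 600 normalised counts (SD, n = 2) in control to 3348 ± 150 with AT7519. This was 3.23-fold lower (log2 change -1.69, adjusted p 8.69e-09 by limma), and its relative MED13L fell by 0.27 on the log2 scale. MED13L did not pass with equal upper quartiles or quantile normalisation (adjusted p 0.0832 and 0.0676), nor when either control replicate or AT7519 replicate 1 was left out (adjusted p 0.0681 to 0.232). Neither MED12 nor MED12L passed. With both agents MED13 and MED13L were lower again than with AT7519 alone, by 0.32 and 0.51 on the log2 scale. In that comparison 2 of the 4 partners fell and 0 rose, beside 12.5% of all tested genes lower and 7.21% higher. Both calls were lost without combination replicate 2 (-0.29 and -0.43), that of MED13 also without AT7519 replicate 1 (-0.27).

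Of the 7 genes of P-TEFb (CDK9 and its T cyclins) and of the CDK11 complexes, 6 rose and 0 fell with AT7519 (background 26.0% and 27.2%). CDK9, the elongation kinase, went from 4919 ± 66.7 to 8384 ± 363 normalised counts (SD, n = 2), a log2 change of 0.77. The largest rises were those of CCNL1, a cyclin of CDK11 (log2 change 2.30), and of CDK11A (0.98, and 0.60 without AT7519 replicate 2). With equal mitochondrial sums 1 of the 7 rose and 3 fell (background 1.97% and 75.6%), and CDK9 was at -0.15 with an adjusted p of 0.31. Compared with AT7519 alone, the combination lowered CCNT1 (log2 change -0.87), a T cyclin of CDK9, and CDK9 itself (-0.45), and raised none of the 7. The background was 12.5% of all tested genes lower and 7.21% higher. Without combination replicate 2 the change of CDK9 was -0.34, and CDK9 was no longer called.

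Of the 4 cell cycle kinases that CDK7 activates, CDK4 (log2 change 0.74), CDK1 (0.65) and CDK2 (0.23) rose with AT7519 and CDK6 (-0.69) fell, beside background shares of 26.0% and 27.2%. With quantile normalisation 1 rose, CDK4 (0.38), and 0 fell, with CDK1 at 0.21 (adjusted p 0.0565), CDK2 at 0.087 and CDK6 at -0.36 (adjusted p 0.161). CDK2 also lost its call without AT7519 replicate 2 or either control replicate (adjusted p 0.0780 to 0.105), and CDK6 without AT7519 replicate 1 (-0.53, adjusted p 0.0621) or control replicate 2 (-0.47, adjusted p 0.120). With equal mitochondrial sums 0 of the 4 rose and 3 fell (background 1.97% and 75.6%), and CDK1 was then lower at -0.27. With OSMI-2 alone CDK1 fell by 0.54 on the log2 scale (adjusted p 0.00999 by limma). It was the only one of the 4 to pass, beside 3.02% of all tested genes. Its call was lost when control replicate 2 (-0.43) or OSMI-2 replicate 2 (-0.47) was left out. CDK1 was lower again with both agents than with AT7519 alone (-0.53). In that comparison 1 of the 4 fell and 0 rose, beside 12.5% of all tested genes lower and 7.21% higher.

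Of 20 DNA repair genes linked to CDK12, 3 rose and 8 fell with AT7519 against background shares of 26.0% and 27.2%, and their median log2 change was -0.018. The largest falls were those of BRCA2, a homologous recombination gene, at 1.21 on the log2 scale, from 3434 ± 127 to 1481 ± 49.9 normalised counts (SD, n = 2), and of the helicase BLM, from 1589 ± 61.3 to 794 ± 42.8. FANCA was higher (0.37), but its call was lost without AT7519 replicate 2 (0.18, adjusted p 0.258) or control replicate 2 (0.29, adjusted p 0.158), and the value was 0.57 without AT7519 replicate 1. With equal totals 0 of the 20 rose and 15 fell, beside 10398 of all 19393 tested genes called, 2035 of them higher. With equal mitochondrial sums all 20 fell, beside 15037 of all tested genes called, 383 of them higher. Between the combination and AT7519 alone 1 rose, the damage kinase ATM (log2 change 0.46), and 5 fell, PALB2 among them (-0.41). The background was 7.21% of all tested genes higher and 12.5% lower. Without combination replicate 2 neither ATM (0.33) nor PALB2 (-0.41) was still called. With OSMI-2 alone 1 of the 20 passed, beside 3.02% of all tested genes: the checkpoint kinase CHEK1, which fell by 0.39 on the log2 scale. That call was lost with equal totals (adjusted p 0.106), equal upper quartiles (0.0838) and quantile normalisation (0.0647), and in 6 of 8 runs that left out a library (adjusted p up to 0.413); with equal mitochondrial sums it was at -0.52 (adjusted p 0.00731).

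Genes whose log2 values followed each member most closely over the 8 libraries were sought among 13043 genes that averaged 50 normalised counts or more, as a description of libraries that share 4 conditions. CDK13 was followed by ZC3H4, TBCEL and ZNF415 (Pearson's r 0.999, 0.998 and 0.998), and 1520 genes reached 0.95 with it. CCNH was followed by ZNF195, PPIE and NME1 (0.998, 0.996 and 0.995), and CDK7 by RAP2B, MED18 and DYRK2 (0.997, 0.996 and 0.996). For CDK8 they were NDC80, FAM110A and LINC00984 (0.994, 0.993 and 0.992), and for CDK12 GEMIN4, RAP2C and HOMER1 (0.996, 0.995 and 0.994). For CCNC they were HSP90AA1, TMED1 and PAPOLA (0.992, 0.991 and 0.991), and for MNAT1 UBB, CDC25A and WDR43 (0.994, 0.992 and 0.989). Fewest genes reached 0.95 with CDK19 and CCNK: 2 with CDK19, led by ZNF783 and TMEM182, with C5orf63 just below, and 3 with CCNK (PCGF1, PWP2 and USP36). Among the 9 members, CDK8 and CDK12 were closest to each other at 0.969.

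Some of these values can hold reads of other genes. On the opposite strand RASA1 overlaps CCNH and CCDC85C overlaps CCNK, and an annotated antisense RNA overlaps CCNH, CCNC and CDK13. The strand used for counting is not given in the sources used here, so reads of such pairs may not have been told apart. On the same strand, AL132777.1 and AL160236.2 overlap MNAT1, AL603914.1 and RNU6-957P overlap CDK19, and AL110504.1 overlaps CCNK. No strand setting separates the genes of these pairs. All these overlaps are of whole gene spans, and overlap of exons was not tested.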

How the data were processed

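RNA sequencing libraries of LNCaP cells, 4 conditions of 2 libraries each, were made with strand-specific TruSeq kits per the labels' protocols. The authors deposited a signal for each gene, that is, its read count over a factor for the library. The submitters' processing notes name the tools STAR, HTSeq and DESeq2 and builds GRCh37 and hg19, without versions, roles or counting strand. Dividing each column by its smallest step gave whole reads for 100% of values (tolerance 0.01), and the count tests were run on these. The 28 lines with no gene name were left out.

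Genes averaging 10 normalised counts or more were tested (19393), as log2(value + 1), with limma 3.58.1 (R 4.3.3) and a mean-variance trend over the 4 group means (4 residual and 10.1 prior degrees of freedom). Two-sided p-values had Benjamini-Hochberg adjustment over all genes of each comparison, and below 0.05 a gene is said to rise or fall. Folds were taken from the fitted change on that log2 scale. The script was tested on simulated data. Alternatives were other pseudocounts, filters, scalings, edgeR 4.0.16, DESeq2 1.42.0, a replicate block and each library left out (for listed genes that are no members, added after seeing the data). The 9 members, the pairs and the lists were chosen with earlier results of these data known. Genes were named by rule: all 9 members and CDK9, up to 2 called genes of each list that rose most and 2 that fell most in each comparison, of which fewer are printed for brevity and 1 is not reported here, and the 3 genes closest to each member. GENCODE release 29 gave exon lengths and overlaps by symbol, and no gene positions are given because the values rest on an older build. The promoters of RefSeq matched all 9 members.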

Additional observations from a re-analysis of the deposited data

Results flagged for a closer look

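Among the listed genes, members included, 1 passed the test of the interaction of the agents, beside 1.04% of all tested genes: CCNT1, a T cyclin of CDK9. Its interaction on the log2 scale was -0.7973, with an adjusted p of 0.0379 by limma. CCNT1 stood at 10351 and 11128 normalised counts in the control libraries, at 9976 and 10492 with OSMI-2 alone, at 12702 and 12517 with AT7519 alone and at 8183 and 5845 under both agents. The libraries with both agents were the lowest and also differed most from each other. With equal upper quartiles or quantile normalisation the adjusted p was 0.0726 and 0.073. In 6 of 8 runs that left out a library, the interaction of CCNT1 did not pass (adjusted p 0.0940 to 0.208), and without combination replicate 2 it was -0.55.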

How the results depend on the processing

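Of 125 recounts of called members under the alternatives, the counts for AT7519 against control, the combination against control, the combination against OSMI-2 and the interaction stayed within 1.5 times. With OSMI-2 against control, 0 became 1 (CDK8) with equal mitochondrial sums and 1 (CDK8) with only the groups compared. For the combination against AT7519, 4 became 2 with no filter on low values, 1 with equal library totals, 1 with equal upper quartiles, 1 with quantile normalisation, 0 with limma without variance trend and 2 with only the groups compared, and 1 to 4 when each library was left out; the cause was not tested. Leaving out a library leaves a group of 1, whose spread is taken to be that of the other groups.

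With equal mitochondrial sums CCNH, CCNC and CCNK turned to -0.31, -0.64 and -0.73 for AT7519 against control, to -0.66, -0.93 and -0.93 for the combination against control, and to -0.37, -0.60 and -0.70 for the combination against OSMI-2. With equal library totals CCNC turned to -0.071, -0.21 and -0.077 in the same 3 comparisons.

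The pair ratios with AT7519 passed for 8 pairs and for 6 to 8 when each library was left out. They passed for 0 when arrangements were kept within the other agent and for 0 with the replicate block, since neither allows an adjusted p below 0.0556. Same-numbered deviations correlated weakly between groups, at 0.0207 to 0.123, which does not settle whether replicate numbers pair the samples. The replicate block in limma left the counts at 0, 6, 6, 4, 6 and 0. With it, all genes called went from 586 to 865 for OSMI-2 against control. For the combination against AT7519 they went from 3815 to 4295. With 2 libraries a group, small changes could be missed.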
